A study of Homo sapiens with 4 samples.

Results

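A small set of windows had 80% or more CpG methylation in non-differentiated cells and 10% or less in cells differentiated with a DNMT1 inhibitor. The genome (chromosomes 1 to 22, hg38) was divided into non-overlapping windows of 1 kb, and 1861567 of them held 5 or more CpGs listed in all 4 deposited tables. Of these, 498660 windows (26.8%) had a methylation level of 80% or more in non-differentiated cells and are called starting windows here. The level of a window is the percent of reads that were methylated, summed over those CpGs. The level was 10% or less in the DNMT1 inhibitor library in 4335 starting windows (0.869%, exact 95% interval 0.844 to 0.895%), which are the windows described below as lost. The windows were thus chosen by their NonDiff and DNMT1i levels, which describe the set and support nothing. The other 494325 starting windows are the comparison throughout.

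The cells were HUDEP-2, immortalised human precursors of red cells in which adult haemoglobin is the normal product. There were 4 whole-genome bisulfite libraries, 1 per group. NonDiff came from untreated, non-differentiated cells. DMSO, DNMT1i and EEDi came from cells differentiated for 4 days of growth and 2 days of maturation, with the vehicle, a DNMT1 inhibitor or an EED inhibitor. Compounds were given in 0.1% DMSO from the expansion stage on, and the labels describe cells given either inhibitor as making more fetal haemoglobin. The compounds' names and doses are not given in the sources used here. Replicates were not part of the data, so each test sets 1 library against another, not condition against condition.

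Mean coverage of the CpGs shared by the 4 tables was 28.3 to 31.1 reads. Promoters of 10 erythroid marker genes had NonDiff levels of 0 to 90.7%, with 5 genes at 20% or less and SLC4A1 the highest. The levels were 18.3 to 85.9% for 4 myeloid markers, of which 1 was at 20% or less, 51.8 to 59.4% for 3 T cell markers, 35.2 to 80.8% for 3 B cell markers and 59.3 to 78.4% for 3 megakaryocyte markers, so the ranges overlapped. No RNA was measured.

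DNMT1 is the maintenance methyltransferase: after DNA replication it copies methylation from the old strand to the new one, so that dividing cells without it dilute their methylation. The de novo enzymes DNMT3A and DNMT3B can add methylation without a template and act strongly in transcribed gene bodies. How quickly a CpG is copied is known to depend on its neighbours: CpGs that stand alone between A or T bases are copied late and lose methylation first in many cell types. EED is a core subunit of Polycomb repressive complex 2, which methylates histone H3 and is a system separate from DNA methylation.

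The sequences below are 200-base stretches of the hg38 plus strand with the most shared CpGs inside 5 lost windows. They are examples of lost DNA, with CpGs, in capitals, from sparse to dense. The first was taken from the longest run of lost windows. The other 4 were chosen after their values were seen. QSOX2 came from the 10 lost windows with the most CpGs and ALOX12 from the 10 promoter windows with the most. Each had the lowest DNMT1i level of its 10. TFRC and SLC2A1 were taken as genes that erythroid cells use. The TFRC window had the least repeated sequence of that gene's lost windows (0.1% of positions, as defined below, against up to 52.9%). The SLC2A1 window had the lowest DNMT1i level of that gene's lost windows (5.03%). The stretches lie at chr14:23476184-23476383 (NGDN, 145 of its bases in a coding exon and the rest intronic in most transcripts), chr9:136237461-136237660 (intron of QSOX2), chr17:6995321-6995520 (upstream of ALOX12), chr3:196067001-196067200 (intron of TFRC) and chr1:42938677-42938876 (intron of SLC2A1).
NGDN, lost: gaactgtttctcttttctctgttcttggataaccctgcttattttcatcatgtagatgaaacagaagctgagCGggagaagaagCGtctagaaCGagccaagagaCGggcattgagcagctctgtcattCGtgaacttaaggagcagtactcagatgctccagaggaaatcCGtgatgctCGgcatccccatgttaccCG
QSOX2, lost: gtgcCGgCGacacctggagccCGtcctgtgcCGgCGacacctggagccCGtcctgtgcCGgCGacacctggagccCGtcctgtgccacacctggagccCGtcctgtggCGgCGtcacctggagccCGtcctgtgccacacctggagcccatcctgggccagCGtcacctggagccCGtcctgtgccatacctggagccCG
ALOX12, lost: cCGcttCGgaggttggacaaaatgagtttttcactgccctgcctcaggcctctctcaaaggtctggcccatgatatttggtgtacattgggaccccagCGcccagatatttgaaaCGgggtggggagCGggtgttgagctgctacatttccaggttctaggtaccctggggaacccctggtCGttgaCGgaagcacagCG
TFRC, lost: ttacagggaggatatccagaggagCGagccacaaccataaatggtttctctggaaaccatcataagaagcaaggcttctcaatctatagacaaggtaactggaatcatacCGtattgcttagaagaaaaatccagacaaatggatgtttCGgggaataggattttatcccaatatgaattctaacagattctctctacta
SLC2A1, lost: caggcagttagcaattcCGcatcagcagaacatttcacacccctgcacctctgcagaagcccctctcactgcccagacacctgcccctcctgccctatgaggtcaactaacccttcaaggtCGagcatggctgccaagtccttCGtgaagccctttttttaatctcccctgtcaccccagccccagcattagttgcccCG

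In the NGDN stretch, 8 CpGs had a summed level of 92.0% in DMSO, 9.91% in DNMT1i and 89.7% in EEDi. Single CpGs there ranged from 83.3 to 97.1% in DMSO and from 3.45 to 14.8% in DNMT1i. The QSOX2 stretch is a short unit repeated in tandem, and its 16 CpGs had levels of 89.5% in DMSO, 9.16% in DNMT1i and 90.5% in EEDi. Its single CpGs ranged from 0 to 23.1% in DNMT1i, on 12 to 22 reads each. The 8 CpGs upstream of ALOX12 had 80.54%, 4.57% and 87.6%, and 1 of them was already at 33.3% in DMSO. The 3 CpGs of the lost TFRC stretch had 89.0%, 9.90% and 88.6%, and the 4 CpGs of SLC2A1 93.9%, 4.21% and 81.7%. The DNMT1i values describe windows that were chosen for a low summed level.

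Across all lost windows the median level was 85.7% in NonDiff, 83.6% in DMSO, 8.84% in DNMT1i and 83.9% in EEDi. The other starting windows had medians of 91.8%, 90.4%, 26.2% and 90.3%. DMSO levels of lost windows ran from 59.4 to 98.7%, with quartiles at 79.1 and 88.6%, and EEDi levels from 53.5 to 99.0%. Median coverage per CpG was alike, at 27.6 reads in DMSO in both sets. The gap in DMSO was smaller at a matched NonDiff level: at levels of 80 to 85% the DMSO medians were 79.3% for lost and 80.9% for other windows, at 85 to 90% 84.6 and 86.3%, at 90 to 95% 90.2 and 92.0%, and at 95% or more 92.5 and 94.3%. A DMSO level under 80% was found in 29% of lost windows and in 8.63% of the others, and an EEDi level under 80% in 28.5% and 8.67%.

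**Figure D1:**
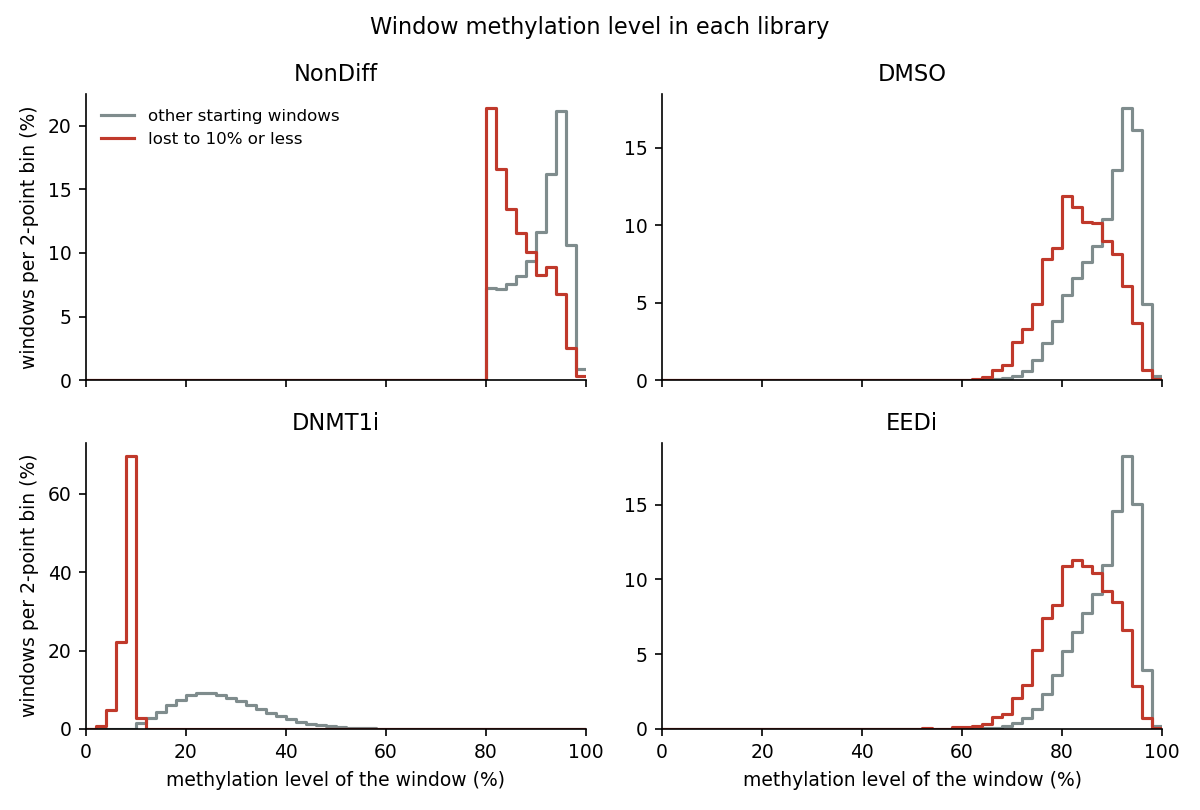
Histograms of window methylation level (x axis, percent; 2-point bins) as a share of windows (y axis, percent) in each of the 4 libraries, for lost windows (red) and other starting windows (grey). The NonDiff and DNMT1i panels show the levels that chose the windows; in DMSO and EEDi the red curve lies to the left of the grey one (medians 83.6 against 90.4% and 83.9 against 90.3%), as it does in NonDiff.

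The share of starting windows that were lost decreased with the starting level. It was 2.13% at NonDiff levels of 80 to 85%, 1.14% at 85 to 90%, 0.476% at 90 to 95% and 0.238% at 95% or more. The windows on either side of each limit were alike. Just inside the DNMT1i limit lay 1121 lost windows (median 9.77% in DNMT1i and 84.5% in DMSO), and just outside it 1260 starting windows (10.3% and 84%). Just inside the NonDiff limit lay 269 lost windows (median 80.2% in NonDiff), and just outside it 235 windows (79.7%) that were at 10% or less in DNMT1i.

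Most of the lost windows lay close under the limit. The DNMT1i level was 8% or less in 1225 windows (28.3%), 5% or less in 103 (2.38%) and 2% or less in 2. With a median of 200 reads per lost window in DNMT1i, the upper bound of the 95% Wilson interval was itself 10% or less in only 199 windows (4.59%). The intervals here cover counting error alone, as several reads can stem from 1 molecule. The lowest 5, named after their values were seen, were in introns of TNNI3K (1.81%, interval 0.616 to 5.18%), APPL1 (1.90%), TBC1D5 (2.31%) and ABHD13 (2.35%) and beside MTX2 (2.35%). Their DMSO levels were 72.0%, 76.5%, 88.6%, 80.9% and 81.4%. Each of the 5 held only 5 or 7 shared CpGs.

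The levels of single CpGs in lost windows are given as a description, since the rule set their sum in DNMT1i. Of 34528 CpGs, 64.6% were at 10% or less in DNMT1i and 16.2% at 0, while 6.12% were above 20%. In DMSO 74.2% of the same CpGs were at 80% or more. The median lost window had its highest CpG at 18.8%, and every CpG was at 20% or less in 2668 windows (61.5%) and at 10% or less in 126 (2.91%).

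The EED inhibitor gave a contrast that did not use the libraries of the rule. In EEDi minus DMSO, the test (a two-sided Fisher's exact test on reads with Benjamini-Hochberg adjustment over all windows, where a call takes an adjusted p under 0.01 and 25 points or more) called 196 of all windows lower (0.0105%) and 66 higher (0.00355%). None of the 4335 lost windows was called in either direction, and a count of 0 allows a share of up to 0.0692% (3 counts of the total). Among the other starting windows 3 were called lower and 1 higher. At an unadjusted p under 0.05, 216 lost windows (4.98%) were lower and 212 (4.89%) higher, against 5.35% and 4.70% of the other starting windows. Over all windows these shares were 8.55% and 4.61%. The difference had a median of 0.133 points in lost windows and -0.122 points in the others, and ran from -21.4 to 18.3 points in lost windows. It was below 0 in 48.7% of lost windows and in 51.8% of the others.

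In 7 lost windows the adjusted p of the Fisher test was under 0.01 with a difference smaller than 25 points, 4 lower and 3 higher. Over all windows this cut took 0.217% as lower and 0.0959% as higher, against 0.0923% and 0.0692% of lost windows and 0.0514% and 0.0488% of other starting windows. The exact intervals of the lost shares, 0.0251 to 0.236% and 0.0143 to 0.202%, include the share of all windows and that of other starting windows in the same direction. The Fisher test counted a read once for each CpG it spans, so the adjusted p of these windows may be too small. All 7 windows were intronic. By Fisher's exact test, lower in EEDi were windows of CLK3, a kinase of splicing factors (81.4% in DMSO, 66.4% in EEDi, adjusted p = 4.55e-05), EXOC4, a subunit of the exocyst (89.7% and 68.3%, adjusted p = 0.00294), ADD3, an adducin of the membrane skeleton (84.8% and 67.2%, adjusted p = 0.00600), and ANKRD36C (85.9% and 73.1%, adjusted p = 0.00719). ANKRD36C has near-identical copies, so its reads may be misplaced. By the same exact test, higher in EEDi were windows of ABTB2 (75.3% and 92.3%, adjusted p = 0.00491), FAM13A (66.4% and 82.2%, adjusted p = 0.00740) and HECTD2 (79.3% and 93.3%, adjusted p = 0.00890).

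In DMSO minus NonDiff no lost window was called, with 0.000913% of all windows lower and 0.000376% higher. The median difference was -2.81 points in lost windows and -1.39 in the others, and nothing is read from it because the rule set the NonDiff level. In DNMT1i minus DMSO all 4335 lost windows were called lower, from which nothing is read since the rule used the DNMT1i level, beside 85.7% of all windows and 494161 of the 494325 other starting windows. The median difference was -75.2 points in lost windows and -62.3 in the others.

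Lost windows held few CpGs. They had a median of 7 shared CpGs (quartiles 5 and 9) against 11 (7 and 16) in the other starting windows, and 7 against 12 CpGs in the reference sequence. The share lost was 2.68% of starting windows with 5 shared CpGs, 1.62% with 6 or 7, 1.01% with 8 or 9, 0.529% with 10 to 14, 0.250% with 15 to 19, 0.0915% with 20 to 29 and 0.0714% with 30 or more. Over the same bins the median DNMT1i level of all starting windows rose from 22.8 to 33.2%. Windows with fewer CpGs also have fewer reads (median 200 in lost and 324 in other windows, DNMT1i), and fewer reads let more windows cross a limit by counting error. The part of depth in this gradient was not tested.

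Repeated sequence was also scarce in them. A 16-base word counts here as repeated when it occurs 100 times or more on chromosomes 1 to 22 and X, which holds for 17.3% of autosomal positions. The median share of such positions was 3.0% in lost windows and 21.2% in the others. The share lost was 1.68% of starting windows with 0 to 5% of repeated positions and 0.128% of those with 60 to 100%. With 8 or more CpGs alone it was 1.05% and 0.0789%. At a matched CpG number the median repeated share was also lower in lost windows, but the gap was small where CpGs were few. It was 2.7% in lost and 5.2% in other windows of 5 CpGs (1216 lost windows). At 6 or 7 CpGs (1379 lost windows) it was 3.2% and 8.2%, and at 10 to 14 CpGs 3.5% and 24.6%. Interspersed repeats such as Alu elements supply many of the dense methylated CpGs outside islands.

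The lost share was highest just downstream of gene starts. Within 2 kb downstream of the nearest protein-coding start, 2.61% (2.22 to 3.06%) of starting windows were lost, against 1.32% (1.08 to 1.61%) within 2 kb upstream. The shares were 1.60% and 1.28% at 2 to 5 kb, and 0.746% and 0.745% at 20 to 50 kb (intervals 0.693 to 0.802% and 0.662 to 0.835%). The median distance to the nearest start was 23265 bp for lost and 30873 bp for other windows. A window at 20% or less in NonDiff lay within 2 kb of 11.0% of lost windows and 4.65% of the others. Such edges of unmethylated regions held 475 of the lost windows, at a median of 2424 bp from a start and with a DMSO level of 83.4%. The other 3860 lay at a median of 26392 bp with a DMSO level of 83.6%.

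**Figure D2:**
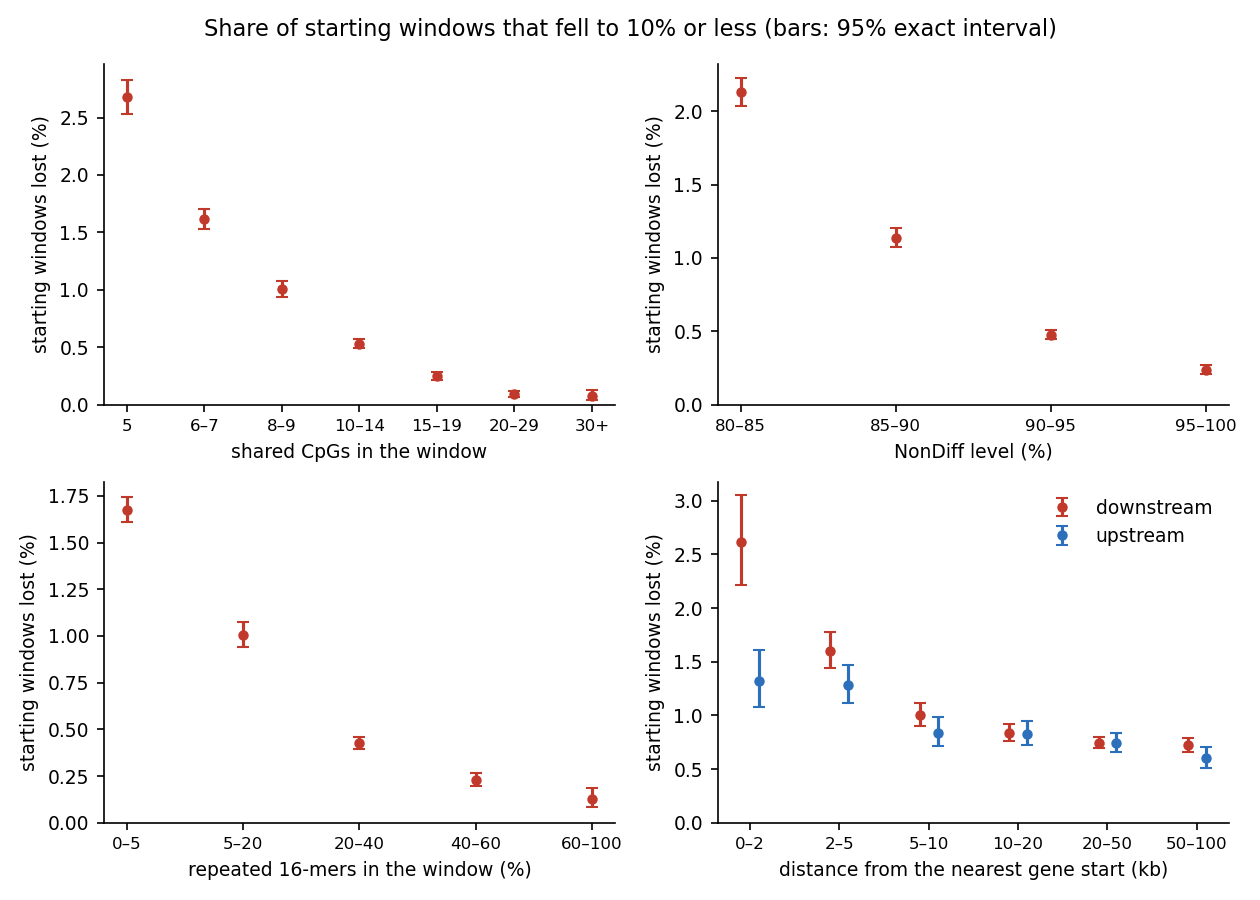
Percent of starting windows that were lost (y axis) by the number of shared CpGs, the NonDiff level, the share of repeated 16-base words and the distance to the nearest gene start on either side; bars are exact 95% intervals. The share falls from 2.68 to 0.0714% with CpG number and from 1.68 to 0.128% with repeat content, and is 2.61% within 2 kb downstream of a start.

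By annotation, lost windows were spread much like the rest. Introns held 68.1% of lost windows and 69.3% of the others, and intergenic DNA 14.5% and 16.6%. Any gene was found at the centre of 85.3% of lost windows and 83.2% of the others. Exons differed more: untranslated exon parts held 6.25% against 3.39% and coding exons 3.67% against 2.92%. Among windows of 10 to 14 CpGs, 11.3% of lost and 5.79% of other windows were centred in an exon.

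Promoters, from 1000 bp upstream to 500 bp downstream of a gene's start, held 34 lost windows (0.784% against 0.434% of the others). DMSO levels in the 34 ran from 67 to 94.5%, with a median of 81.7%, and DNMT1i levels from 4.97 to 10%. In 17 of these 34 windows fewer than 50% of the reference CpGs were listed in all 4 tables, as against 15% of other promoter windows, so their level describes only part of the promoter. The window of ALOX12, the 12-lipoxygenase of platelets, listed 17 of 45 CpGs, at 80.2% in DMSO, 4.97% in DNMT1i and 81.2% in EEDi. The window of ZGPAT, a zinc finger repressor, listed 16 of 103. More complete were FAM83E (22 of 26 CpGs, centred in the gene RPL18), at 84.7%, 7.69% and 88.3%, OLFML3 (15 of 18), at 80.7%, 8.49% and 82.2%, and CCDC88B (15 of 15), at 77.9%, 7.99% and 80.7%. The next promoters by CpG number, with 11 to 15 CpGs, were those of PTK6, ABI1, TMEM132A and, tied at 11, S100A3, ENSG00000243696, RMDN1 and FAM234B. Their DMSO levels were 71.2 to 89.9% and their DNMT1i levels 7.28 to 9.95%. PTK6 listed only 15 of 53 reference CpGs and ABI1 14 of 39. RMDN1, on chromosome 8, had 763 DMSO reads over its 11 CpGs, above the usual depth per CpG. The promoter of DNMT3B, a de novo methyltransferase that is silent in many differentiated cells, had a lost window with 7 of 18 CpGs listed, at 79.6% in DMSO, 8.14% in DNMT1i and 74.7% in EEDi.

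The 10 lost windows with the most CpGs held 31 to 51, well above the usual number. They lay in CIRBP, a cold-inducible RNA-binding protein (51 CpGs, 80.2% in DMSO and 9.91% in DNMT1i), QSOX2, a sulfhydryl oxidase that forms disulfide bonds (42 CpGs, 79.2% and 7.32%), CMC2 with the overlapping centromere gene CENPN (42 CpGs, 77.9% and 9.72%), NCLN, RPL13A, DOK3, TST, ARHGAP21 and KIAA1671, and beside TRIM33. An unmethylated window lay within 2 kb of 7 of these 10. RPL13A encodes a ribosomal protein with many processed copies elsewhere, so its reads are open to misplacement.

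Flanking bases differed too. CpGs with A or T on both sides made up 31.3% of CpGs in lost windows and 21.1% in the others, while CpGs with C or G on both sides were 6906 of 34525 in lost windows and 29.5% in the others. In the other starting windows DNMT1i levels were 35.5% with both flanks C or G, 27.8% with 1 flank A or T and 20.4% with both A or T, while DMSO levels were 92.1%, 89.6% and 84.5%. Inside lost windows the DNMT1i levels were 10.8%, 8.99% and 6.95% in the same order. These are given as a description only, since the rule set the summed DNMT1i level of lost windows. As a mean over windows, the share of CpGs between A or T was 34.0% in lost and 24.1% in other windows. The gap was smaller at a matched CpG number, with 40.6% and 33.3% at 5 CpGs and 36.5% and 31.1% at 6 or 7. At 10 to 14 CpGs it was smallest, with 25.7% and 22.7%.

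**Figure D3:**
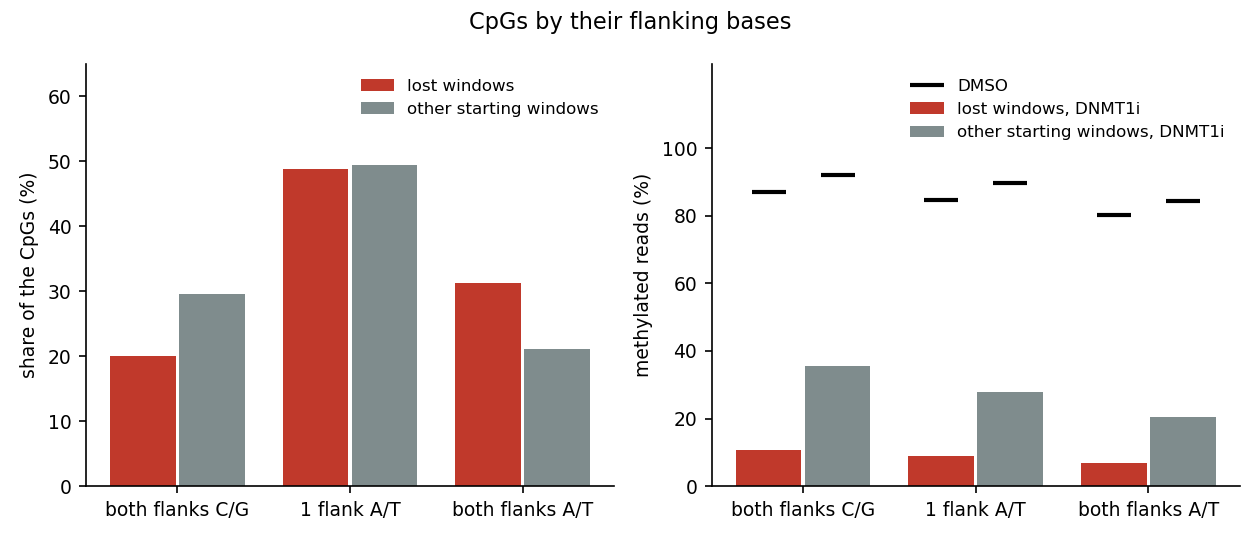
Left, the share of CpGs (percent) by their flanking bases in lost (red) and other starting windows (grey). Right, the summed level (percent of reads) in DNMT1i as bars and in DMSO as black marks. The DNMT1i level is lowest with A or T on both sides, at 6.95% in lost and 20.4% in other windows. Lost windows were chosen for a low DNMT1i level, so their bars are a description.

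Motif letters were counted on both strands as a description. GC content had a median of 40.9% in lost and 42.8% in other windows. At a matched CpG number the order was the reverse in every bin. Mean GC content was 38.2% in lost and 37.7% in other windows at 5 CpGs, and 47.9% and 43.6% at 10 to 14. CGCG was present in 5.54% of lost and 25.3% of other windows, which goes with their CpG number, but also in 8.97% against 22.3% at 10 to 14 CpGs. AGATAA, the letters bound by the erythroid factor GATA1, was present in 49.7% of lost and 45.8% of other windows. In every bin of CpG number, however, AGATAA was less frequent in lost windows. The shares were 58.8% in lost and 59.4% in other windows at 5 CpGs, and 54.6% and 56.5% at 6 or 7. At 10 to 14 CpGs they were 37.7% and 46.0%. CCACACCC, a KLF1-type word that contains no CpG, was present in 7.80% and 12.6%, CAGCTG, an E-box, in 34.9% and 31.2%, and the ETS word GAGGAAGT in 5.37% and 4.24%. TGAGTCA (13.8% and 13.7%), AGGGGGCG (1.11% and 1.08%) and CACGTG (9.13% and 10.1%) were at similar shares in both sets. Apart from CGCG and AGATAA, the words were not compared at a matched CpG number. No word was compared at a matched share of repeated positions, which was lower in lost windows (median 3.0% against 21.2%).

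Lost windows were mostly single, and starting windows directly beside them were lower in DNMT1i than those beside other starting windows. Joined also across 1 window without a level, there were 4182 single windows, 75 pairs and 1 run of 3, with 70 joins between touching windows and 7 across such a gap. A touching lost window was found for 139 lost windows (3.21%) and for 0.834% of the others. Another lost window lay within 10 kb of 18.0% and 7.97%, within 50 kb of 41.8% and 29.2%, and within 100 kb of 56.0% and 45.4%. Directly beside a lost window, starting windows that were not lost themselves had a median DNMT1i level of 20.1%, against 26.8% beside other starting windows. At 10 kb these medians were 23.7 and 26.5%, and at 50 kb 25.1 and 26.6%. DMSO levels of the same windows directly beside were 90.6 and 91.5%. Over the surrounding 100 kb the median DMSO level was 75.7% for lost and 79.6% for other windows, and that in DNMT1i 20.1% and 23.5%. In NonDiff the surrounding level was 77.1% for lost and 81.1% for other windows, so the surroundings of lost windows were lower in all of these libraries and not in DNMT1i alone.

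**Figure D4:**
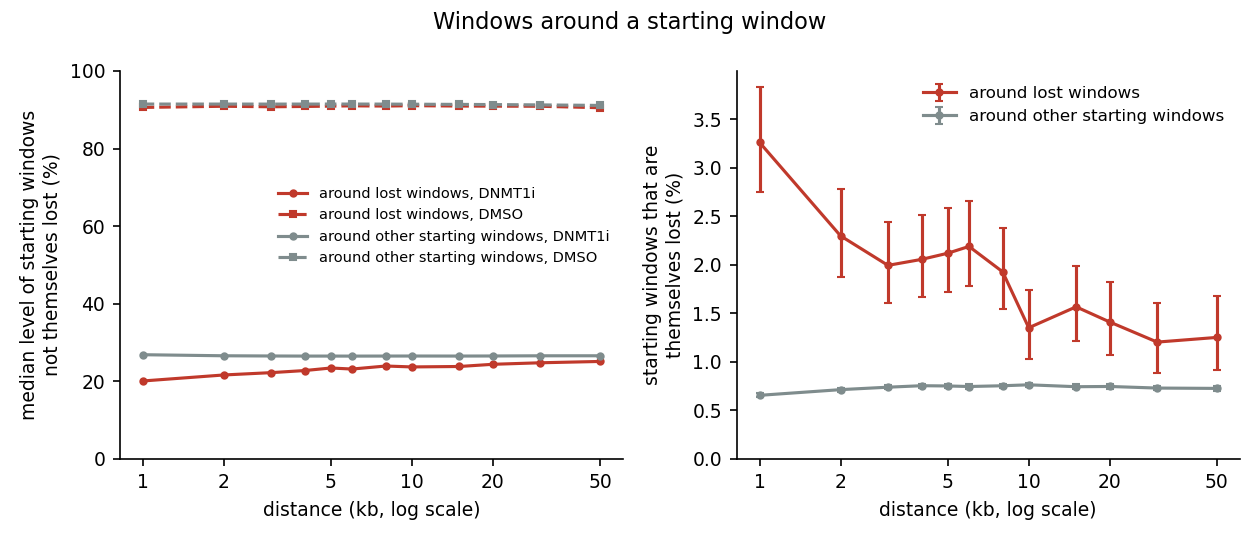
Left, the median level (percent) of starting windows that were not lost, in DNMT1i and DMSO, by distance (kb, log scale) from a lost (red) or another starting window (grey). Right, the percent of starting windows that were lost, with exact 95% intervals; it is 3.26% directly beside a lost window and 0.654% directly beside another.

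The longest run covered chr14:23475001-23478000 in NGDN, the gene of neuroguidin. Its 3 windows had 89.9%, 91.1% and 91.4% in DMSO, 9.49%, 8.57% and 8.87% in DNMT1i, and 88.4%, 90.6% and 95.2% in EEDi. The pairs with the most CpGs were in KIAA1671 (9.97 and 8.58% in DNMT1i), GUK1, guanylate kinase (8.81 and 8.58%), RAI1 (7.79 and 9.84%) and PMPCA, a mitochondrial processing peptidase subunit (9.49 and 9.78%). Over these 11 windows the DMSO level ran from 74.9 to 91.4% and the EEDi level from 77.9 to 95.2%.

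Lost windows were thinly spread over genes. Of 14967 protein-coding genes with a starting window, 2676 had at least 1 lost window, 2017 had exactly 1, 194 had 3 or more and 34 had 5 or more. The most were in ZMIZ1, a coactivator related to the PIAS proteins, with 15 of 169 starting windows (8.88%). Next were RAI1 (8 of 90), SERGEF (7 of 109), DYNC2H1, the heavy chain of ciliary dynein (7 of 128), BBX (7 of 169), FAM172A (7 of 231), PARD3, a cell polarity scaffold (7 of 360), CD82 and TFRC (6 each) and GDPD5 (6 of 70). As a description that includes the lost windows themselves, the median DNMT1i level of all starting windows was 15.2% in CD82, 16.3% in RAI1, 16.7% in ZMIZ1, 16.8% in SERGEF, 18.0% in GDPD5, 19.2% in TFRC and 20.7% in DYNC2H1. It was 23.3% in BBX, 24.3% in PARD3 and 25.3% in FAM172A, beside a median of 26.3% over the 5753 genes with 20 or more starting windows.

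By share of such genes' starting windows, the first were NSFL1C, the p47 cofactor of the p97 ATPase (5 of 22), CD82, a tetraspanin of the cell surface (6 of 29), NGDN (4 of 23), TFRC (6 of 39) and DISP1, which releases Hedgehog proteins (4 of 26). CA1, carbonic anhydrase 1 of red cells, had 3 of 20, AAR2, a splicing factor, 3 of 22, CLK3 4 of 30, EFCAB7 3 of 25 and TMEM266 3 of 27. The 3 CA1 windows had 93.4 to 98.1 DMSO reads per CpG, several times the usual depth, and DNMT1i levels of 9.40 to 9.86%. The part of that depth in the result was not tested. In NSFL1C the lost windows had DMSO levels of 76.8 to 91.0% and DNMT1i levels of 5.95 to 9.61%, and in CD82 80 to 94.3% and 7.35 to 9.84%. Windows of the same genes that were not lost had DNMT1i medians of 16.4% in NSFL1C and 18.4% in CD82.

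**Figure D5:**
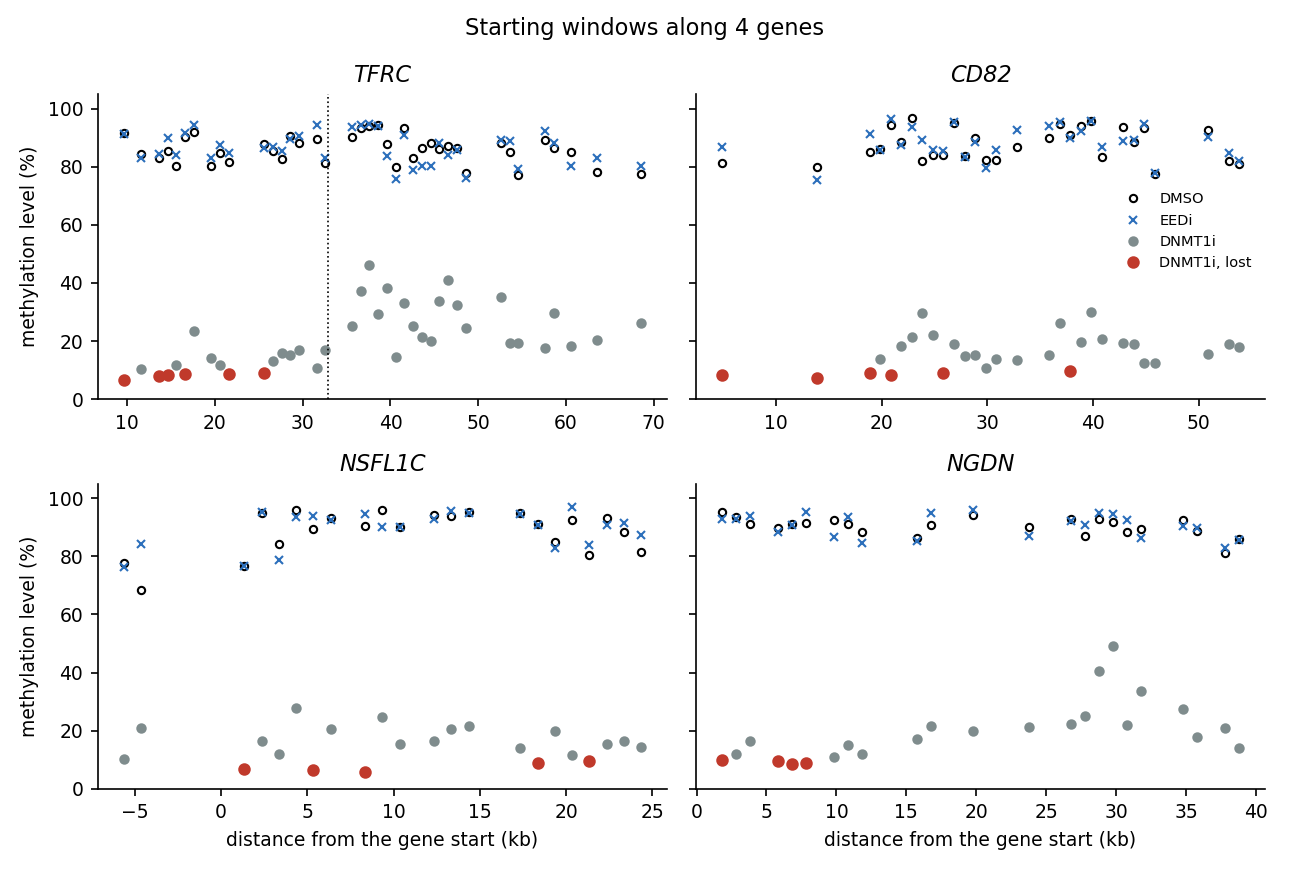
Methylation level (percent) of every starting window along TFRC, CD82, NSFL1C and NGDN against the distance from the gene start (kb), in DMSO, EEDi and DNMT1i; lost windows are red. The dotted line in TFRC marks the transcript end that most transcripts share, at 32.9 kb. Up to it DNMT1i levels run from 6.70 to 23.3%, including the lost windows, which were chosen for a low level. Past it they run from 14.6 to 46.3%.

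TFRC encodes the transferrin receptor, through which erythroid cells take up iron. Its 6 lost windows lay 9.59 to 25.6 kb from the gene start. Their DNMT1i levels, in order from the start, were 6.70%, 7.97%, 8.24%, 8.75%, 8.79% and 9.20%. Their DMSO levels in that order were 91.5%, 83.1%, 85.2%, 90.4%, 81.5% and 87.9%, and their EEDi levels 91.2%, 84.2%, 89.8%, 91.5%, 84.6% and 86.4%. Of 38 annotated transcripts 22 end at the same base, 32.9 kb from the start. The 17 starting windows up to there had a median DNMT1i level of 11.6%, and 16 of them were at 20% or less. They include all 6 lost windows, which the rule chose for a low DNMT1i level, so this median is partly set by the rule. Windows in this part that were not lost had DNMT1i levels of 10.4 to 23.3%. The 22 starting windows in the annotated part past that end had a median of 25.7%, and 5 were at 20% or less. DMSO medians of the 2 parts were 85.2 and 86.5%. This split was made after the values were seen.

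Among genes of the red cell, heme and iron genes had 9 of 349 starting windows lost (2.58%, 1.19 to 4.84%), of which 6 were in TFRC. The others were 2 of 34 in SLC11A2, the iron transporter DMT1 (DNMT1i levels 8.54 and 10%), and 1 of 32 in ABCB10, a mitochondrial transporter needed for heme synthesis (9.09%). Without TFRC the list had 3 of 310 (0.968%, 0.200 to 2.80%), an interval that includes the share over all starting windows. The list of 10 erythroid markers, which also holds TFRC, had 11 of 129 (8.53%, 4.33 to 14.7%), 6 of them in TFRC. Red cell membrane genes had 16 of 1055 (1.52%, 0.869 to 2.45%) in 11 genes. SLC2A1, the glucose transporter of red cells, had 3 of 17, at 5.03, 7.66 and 9.83% in DNMT1i and 89.2, 80.2 and 87.7% in DMSO. GYPC, RHAG, ADD1, ANK1, DMTN, TMOD1 and SPTB were among those with 1 each. Erythroid transcription factors had 7 of 516 (1.36%, 0.547 to 2.78%): 3 in ZFPM1, the GATA1 cofactor FOG1, 2 in RUNX1 and 1 each in GATA2 and IKZF1. The RUNX1 window at chr21:35768001-35769000 lay inside the annotated gene but upstream of the gene start used here. Its nearest protein-coding start was that of SETD4. Globin genes had 0 of 130, which allows up to 2.31% (3 counts of the total). The intervals of the transcription factors and the membrane genes include the share over all starting windows (0.869%), the latter only at its lower end. Such intervals treat windows as independent, though lost windows lay near each other, so they may be too narrow.

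Regulators of fetal haemoglobin had 8 of 1539 (0.520%, 0.225 to 1.02%). BCL11A, the repressor of fetal globin genes, had 1 of 75, at chr2:60509001-60510000 with 15 CpGs, at 90.8% in NonDiff, 92.3% in DMSO, 8.74% in DNMT1i and 91.7% in EEDi. KDM1A, a histone demethylase, and SOX6, a partner of BCL11A, had 2 each, and NFIA, NFIX and IGF2BP3 1 each. The NFIX window had 21 CpGs, at 81.6% in DMSO, 8.97% in DNMT1i and 81.8% in EEDi. DNA methylation and Polycomb genes had 6 of 1247 (0.481%, 0.177 to 1.04%): 2 each in DNMT3B, apart from its promoter window, and PHF19, a Polycomb accessory protein, and 1 each in TET3, which oxidises methylcytosine, and EZH2, the Polycomb methyltransferase. The intervals of both lists include the share over all starting windows.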

How the data were processed

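Genomic DNA of 4 HUDEP-2 cultures, spiked with lambda DNA, was bisulfite-converted and sequenced. The submitters' processing notes name Trim Galore 0.6.7, cutadapt 4.1, Bismark, Bowtie2 2.1.0, methylKit and hg38; removal of duplicates is not given in the sources used here. Per the file headers, each deposited table gives per CpG a read count (coverage) and the percent of C and T reads. Every deposited coverage count was at least 10, so CpGs under that depth are unlisted. Methylated reads were computed as coverage times percent and were whole within 0.0005 of the coverage.

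Levels were summed over 22761441 autosomal CpGs listed in all 4 tables, of which 2013 were not on a reference CG. For windows with 5 or more such CpGs, reads were compared by a two-sided Fisher test, with p adjusted after Benjamini-Hochberg. The Fisher test was computed with numba 0.67.0 from log-factorials given by SciPy 1.17.1. The test was checked on simulated data. Shares carry exact 95% (Clopper-Pearson) intervals, which treat windows as independent and may be too narrow where lost windows cluster. Genes came from GENCODE 44, and a window's class from its centre. Named genes were the 10 with most lost windows, the 10 with the largest share (20 or more starting windows), the 10 promoter windows (ties kept) and 10 windows with most CpGs, the 5 longest runs, and list genes with a lost window. Some named items are not reported here. Windows, lists and tests were chosen with earlier results of these data known. No DNA was sequenced from separate replicate cultures in the tables used, and the conversion rate was not measured here.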

Additional observations from a re-analysis of the deposited data

How the results depend on the processing

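The count of lost windows was 4335 and depended on how low the limit was. It was 1740 with at least 8 shared CpGs, 103 at a limit of 5% and 199 when the upper Wilson bound had to be 10% or less. Over all alternatives it ran from 103 to 4340. The median number of shared CpGs was 10 with at least 8 required, and 6 with at least 20 reads in every library or a limit of 5%. The share with a touching lost window, 3.21% as reported, was 2.41% with at least 8 CpGs, 2.66% with 20 reads, 3.81% with an unweighted mean of CpG levels, 0% at a limit of 5% and 1.01% under the Wilson bound. The median DNMT1i level of all touching windows, whatever their own level, was 16.4% (24.3% beside other starting windows), with 16.03% at 8 CpGs, 14.6% at a limit of 5% and 13.6% under the Wilson bound. The share of CpGs between A or T was 26.0%, 33.6%, 34.3% and 29.9% with 8 CpGs, 20 reads, a limit of 5% and the Wilson bound. Without the 25-point threshold 7 lost windows were called in EEDi minus DMSO instead of 0, beside 0.217% of all windows lower and 0.0959% higher. A grid shifted by 500 bp gave 4340 lost windows and moved the share inside a gene from 85.3 to 83.8%. Leaving out chromosome 8 (added after seeing the data) gave 4246. Repeated 16-base words replaced the planned soft-masked share, which was not run because the reference is in capitals throughout. No paired analysis was possible because each group had 1 library. Depth limits single windows: a median of 200 reads leaves a level of 8.84% with an upper bound near 13.3%.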

Other observations

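Lost windows were unevenly spread over chromosomes. The share of starting windows lost was highest on chromosome 11 (349 of 23537, 1.48%, exact 95% interval 1.33 to 1.65%), chromosome 20 (177 of 13006, 1.36%) and chromosome 17 (270 of 24105, 1.12%). It was lowest on chromosomes 21 (26 of 5962, 0.436%), 8 (89 of 20054, 0.444%), 19 (82 of 17646, 0.465%) and 6 (137 of 27561, 0.497%). With 8 or more CpGs the shares were 1.00% on chromosome 11, 0.912% on chromosome 20, 0.691% on chromosome 17, 0.257% on chromosome 21, 0.181% on chromosome 8, 0.192% on chromosome 6 and 0.403% on chromosome 19. Chromosomes 2, 4, 7, 13 and 18 (0.311 to 0.373%) then also lay below chromosome 19. The median DNMT1i level of all starting windows was 24.2% on chromosome 11 and 24.1% on chromosome 20, and 26.6% on chromosome 8.

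Lost windows were also found in germline, imprinted and other blood lineage genes, none of them in a promoter. Germline genes had 5 of 379 starting windows (1.32%, 0.430 to 3.05%). They were 2 in DDX4, the germ cell helicase VASA (DNMT1i levels 5.54 and 8.29%, DMSO 75 to 78.8%), 2 in HORMAD2 and 1 in SYCP2, both of the meiotic chromosome axis. Imprinted genes had 8 of 1209 (0.662%, 0.286 to 1.30%), with 3 in TRAPPC9, 2 in GRB10 and 1 each in PLAGL1, SGCE and INPP5F. Genes of other blood lineages had 1 of 97 (1.03%, 0.0261 to 5.61%), in LYZ, the lysozyme of myeloid cells, at 79.6% in DMSO and 10% in DNMT1i. All 3 intervals include the share over all starting windows.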
